A study of Homo sapiens with 6 samples.

Results

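The ATF4 amino acid response genes described here are 10 genes of the deposited table, out of 61806 genes listed: ATF4, SLC38A2, SLC7A11, SLC3A2, SLC7A5, ASNS, DDIT3, TRIB3, CHAC1 and PSAT1. They were chosen by gene symbol, and in part because the values of ATF4 and SLC38A2 were higher in shFTO than in shNC, so the difference between those groups is given below for all 10 as a description without a test. All 10 symbols were listed, each once. RNA was sequenced from MG63, an established human osteosarcoma cell line, in 3 libraries of cells with a stable short hairpin against FTO (shFTO) and 3 libraries of cells with a stable control hairpin (shNC). FTO encodes a demethylase of N6-methyladenosine in RNA, and the comparison asks which transcripts differ when FTO is targeted. The sources used here do not give the hairpin sequences, the number of clones, or the culture medium and its amino acid content.

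ATF4 is a transcription factor whose messenger RNA is translated more when the initiation factor eIF2 is phosphorylated, as happens when amino acids run short or unfolded protein builds up in the endoplasmic reticulum (ER). It pairs with other basic leucine zipper factors on composite C/EBP-ATF elements and raises transcription of amino acid transporters, enzymes that make amino acids, and feedback regulators. Its activity is set in large part by translation, which RNA levels do not measure.

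Expression was deposited as FPKM, reads scaled to exonic length and to the library's total. The whole reads behind these values could be recovered, and they came to between 93629 and 106245 per library. Whether the table was made from all sequenced reads is not given in the sources used here, so each 0, limit and rank refers to these reads. Their spread over genes was uneven, with a mean per library of 2207 for YBX1 and 1829 for PABPC1. By contrast ACTB averaged 12.5 reads and VIM 14.2, and the cause was not tested. FTO was listed at 0 in all 6 libraries, which allows up to 0.462 FPKM in shFTO and 0.486 FPKM in shNC at the limit of 3 reads over a group, so the knockdown could not be checked. Of 7 mesenchymal and osteoblast lineage markers, 6 had reads (243 in shFTO and 211 in shNC) and ALPL was at 0, while 10 markers of epithelial, blood, endothelial and neural cells had 1 read in shFTO and 3 in shNC. Intervals and limits below cover counting error only. In RNA from a whole culture, fewer cells that express a gene and less RNA per cell cannot be told apart.

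The promoters of 9 of the 10 genes were held in the RefSeq promoter table (build GRCh38.p14). The 250 bases before each RefSeq start were searched on both strands for TGATGNAA, a core form of the C/EBP-ATF element. ASNS and CHAC1 held a match, and the starts of the other 7 genes searched held none. The source holds more than 1 start for some genes, and 2 of the 16 windows of the members held a match, against 3.14% of all 35116 windows. By gene, 3.89% of 27305 genes held a match in any window. The windows of the 2 genes with a match are shown as the 30 bases around it, in capitals, because both matches lie inside first exons of longer transcripts in GENCODE release 29. The ASNS match began 68 bases before the start at chr7:97872458-97872487 (minus strand), and the CHAC1 match, on the opposite strand to the gene, began 209 bases before the start at chr15:40953251-40953280 (plus strand).
ASNS: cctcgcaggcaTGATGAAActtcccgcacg
CHAC1: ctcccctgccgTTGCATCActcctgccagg
For contrast, the part of the SLC38A2 window that lies outside annotated exons (chr12:46372868-46373023, minus strand, 156 bases) and the SLC7A5 window (chr16:87869508-87869757, minus strand, 250 bases) are shown, since these 2 genes had the most reads among the 10. Neither has a match, and 73.7% and 79.6% of their bases are G or C.
SLC38A2: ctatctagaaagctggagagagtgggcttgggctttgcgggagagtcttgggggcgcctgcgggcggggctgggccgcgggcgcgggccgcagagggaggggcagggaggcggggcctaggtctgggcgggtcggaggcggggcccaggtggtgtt
SLC7A5: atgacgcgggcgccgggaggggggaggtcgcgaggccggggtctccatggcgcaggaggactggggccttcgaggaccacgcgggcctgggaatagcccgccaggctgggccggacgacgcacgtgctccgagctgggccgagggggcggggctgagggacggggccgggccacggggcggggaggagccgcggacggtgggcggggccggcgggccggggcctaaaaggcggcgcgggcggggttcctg
The match is a run of letters and not a measured binding site, and its lack in these windows says nothing of elements elsewhere in a gene. ASNS and CHAC1, whose windows hold the match, were listed at 0 in all 6 libraries, whereas SLC38A2 was by far the most read of the 10.

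SLC38A2 dominated the set. The 10 genes had 226 reads over the 6 libraries, 135 in shFTO and 91 in shNC, and SLC38A2 held 185 of them, or 81.9%. At least 1 read was found for 7 of the 10 genes, and ASNS, DDIT3 and CHAC1 had none. Without SLC38A2, 36 of 54 combinations of gene and library were at 0. The order of mean FPKM over the 6 libraries was SLC38A2, ATF4, SLC7A5, PSAT1, TRIB3, SLC3A2 and SLC7A11, with the 3 unread genes last. SLC38A2 in its lowest library, at 32.57 FPKM, stood above the highest library of every other member, which was 14.8 FPKM for ATF4. From ATF4 at 5.58 ± 6 FPKM to SLC7A11 at 0.908 ± 1.29 FPKM (SD, n = 6), each neighbour in the order differed by less than the spread over libraries.

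**Figure D1:**
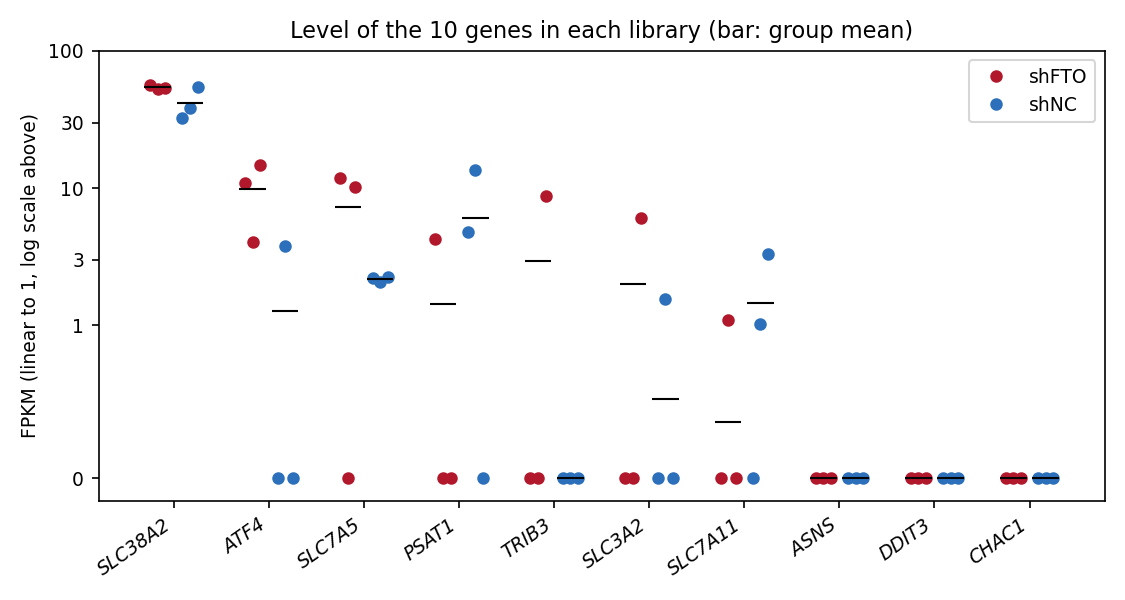
FPKM of each of the 10 genes (linear up to 1 and on a log scale above) in the 3 shFTO and the 3 shNC libraries, with a black bar at each group mean. SLC38A2 lies between 32.57 and 56.4 FPKM in all 6 libraries, while each other gene is at 0 in at least 1 library and ASNS, DDIT3 and CHAC1 are at 0 in all.

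Among the transcription factors, ATF4 (ENSG00000128272, chromosome 22, 39519695 to 39522683, plus strand) had 10.81, 4.07 and 14.8 FPKM in shFTO replicates 1, 2 and 3, against 0, 3.79 and 0 FPKM in shNC replicates 1, 2 and 3. These values stand for 3, 1 and 4 reads in shFTO and for 0, 1 and 0 reads in shNC. The FPKM of the groups did not overlap, but shFTO replicate 2 and shNC replicate 2 had 1 read each and differed in FPKM by library size alone. Such a separation, higher in shFTO, was found for 2.9% of the 4932 genes tested, and ATF4 was the member that showed it. ATF4 averaged 9.89 ± 5.42 FPKM in shFTO and 1.26 ± 2.19 FPKM in shNC (SD, n = 3 each). The ratio of its reads, scaled to library totals, was 7.61, with an exact 95% interval from 1.02 to 338. The fitted log2 fold change on log2(FPKM + 1) was 2.54 (SE 0.97), and it lay between 2.17 and 3.30 with any 1 library left out. ATF4 was one of the genes that chose the set, so these values support nothing by themselves.

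DDIT3, which encodes CHOP, a basic leucine zipper factor of prolonged ER stress, was listed at 0 in all 6 libraries. At 3 reads over the group, DDIT3 could stand at up to 7.56 FPKM in shFTO and 7.94 FPKM in shNC, the highest limits of the 10 genes because its exonic length of 1307 bases is the shortest. DDIT3 (chromosome 12, 57516588 to 57521737, minus strand) shares part of its span with MARS1 and MBD6 on the plus strand, which had 10 and 38 reads over the 6 libraries. It was the single member overlapped by a gene with reads, and the strand setting of the counting is not given in the sources used here.

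SLC38A2 (ENSG00000134294, chromosome 12, 46358188 to 46372773, minus strand) encodes SNAT2, a sodium-coupled transporter of small neutral amino acids whose RNA and protein are known to rise when amino acids are withdrawn. It had 56.4, 52.25 and 53.46 FPKM in shFTO replicates 1, 2 and 3, against 32.57, 38.03 and 54.15 FPKM in shNC replicates 1, 2 and 3. The 3 shFTO libraries lay closer together than counting error, which alone spans 35.7 to 73.8 FPKM in shFTO replicate 2. Their closeness is therefore no measure of the spread of that group. The groups overlapped because shNC replicate 3 was as high as shFTO. In reads these were 39, 32 and 36 in shFTO and 20, 25 and 33 in shNC. SLC38A2 averaged 54 ± 2.13 FPKM in shFTO and 41.6 ± 11.2 FPKM in shNC (SD, n = 3 each).

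The ratio of SLC38A2 reads, scaled to library totals, was 1.3, with an exact 95% interval from 0.966 to 1.77. Its fitted log2 fold change was 0.40 (SE 0.30). Without shNC replicate 1 the estimate was 0.25, and without shNC replicate 3 it was 0.60. Counting error alone spans 35.7 to 73.8 FPKM for the 32 reads of shFTO replicate 2 and 19.9 to 50.3 FPKM for the 20 reads of shNC replicate 1. These intervals overlap. By mean FPKM SLC38A2 stood at rank 392 of 7057 genes with any read, and 94.4% of those genes were lower.

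**Figure D2:**
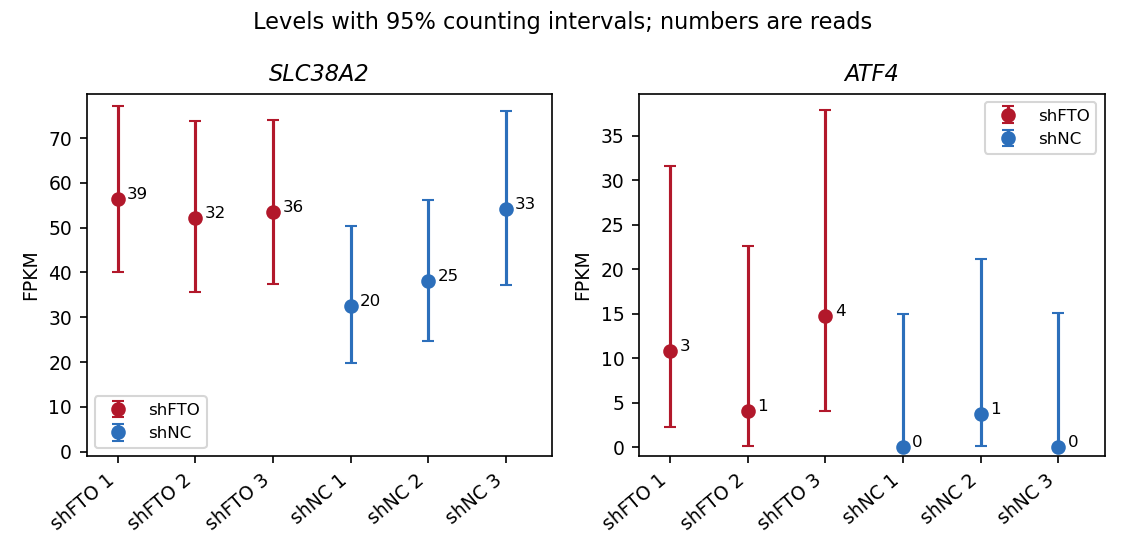
FPKM of SLC38A2 (left) and ATF4 (right) in each library, with exact 95% Poisson intervals as bars and the number of reads beside each point. For SLC38A2 the 20 reads of shNC replicate 1 and the 39 reads of shFTO replicate 1 are the extremes, and for ATF4 no library has more than 4 reads.

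The other transporters were sparse. SLC7A5 (chromosome 16, 87830023 to 87869507, minus strand) encodes LAT1, the exchanger that brings in leucine and other large neutral amino acids. It had 11.85, 0 and 10.14 FPKM in shFTO replicates 1, 2 and 3, against 2.22, 2.08 and 2.24 FPKM in shNC replicates 1, 2 and 3. These were 6, 0 and 5 reads in shFTO and 1 read in each shNC library, so the groups overlapped, with shFTO replicate 2 the lowest of all 6. The SD of 0.0872 FPKM in shNC reflects library size and not counting error. The ratio of its reads was 3.49, with an exact 95% interval from 0.921 to 19.5, and the fitted log2 fold change was 0.72 (SE 1.01). Without shFTO replicate 1 or 3 that estimate was 0.07 or 0.17, and without shFTO replicate 2 it was 1.91.

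SLC3A2 (chromosome 11, 62856004 to 62888880, plus strand) encodes CD98, the heavy chain that both SLC7A5 and SLC7A11 need to reach the cell surface. It had 0, 0 and 6.05 FPKM in shFTO replicates 1, 2 and 3, against 0, 1.55 and 0 FPKM in shNC replicates 1, 2 and 3. Its 5 reads lay in 2 libraries, 4 in shFTO replicate 3 and 1 in shNC replicate 2. The fitted log2 fold change was 0.49 (SE 1.02) and turned to -0.45 without shFTO replicate 3. SLC7A11 (chromosome 4, 138164097 to 138242349, minus strand) encodes xCT, which imports cystine in exchange for glutamate and so feeds glutathione synthesis. It had 0, 1.1 and 0 FPKM in shFTO replicates 1, 2 and 3, against 0, 1.03 and 3.32 FPKM in shNC replicates 1, 2 and 3. Both groups included libraries at 0, and the fitted log2 fold change was -0.69 (SE 0.99). That estimate was -0.15 without shNC replicate 3, -1.21 without shNC replicate 1 and -1.67 with a pseudocount of 0.1. On the same per-length scale the heavy chain SLC3A2 averaged 2.02 ± 3.49 FPKM in shFTO and 0.517 ± 0.895 FPKM in shNC (SD, n = 3 each). Its partner SLC7A5 averaged 7.33 ± 6.41 FPKM in shFTO and 2.18 ± 0.0872 FPKM in shNC, and SLC7A11 averaged 0.367 ± 0.635 FPKM in shFTO and 1.45 ± 1.7 FPKM in shNC.

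Of the enzymes that make amino acids, PSAT1 had reads and ASNS had none. PSAT1 (chromosome 9, 78297125 to 78330093, plus strand), an aminotransferase of serine synthesis, had 4.27, 0 and 0 FPKM in shFTO replicates 1, 2 and 3, against 4.8, 13.47 and 0 FPKM in shNC replicates 1, 2 and 3. These stand for 1 read in shFTO and 4 in shNC, and the groups overlapped. The ratio of its reads was 0.238, with an exact 95% interval from 0.00483 to 2.40, and the fitted log2 fold change was -1.33 (SE 1.12). It was -0.47 without shNC replicate 2, -2.40 without shNC replicate 3 and -2.42 with a pseudocount of 0.1. ASNS (chromosome 7, 97851677 to 97872542, minus strand), which makes asparagine and is a textbook target of ATF4, was at 0 in all 6 libraries. Over the 3 libraries of a group, 3 reads would put ASNS at 2.02 FPKM in shFTO and 2.12 FPKM in shNC. SLC38A2 and SLC7A5 had means at or above those limits in both groups.

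TRIB3 and CHAC1, a feedback regulator and a glutathione-degrading enzyme, gave almost no reads. TRIB3 (chromosome 20, 362835 to 397559, plus strand), a pseudokinase that restrains ATF4, had 0, 0 and 8.81 FPKM in shFTO replicates 1, 2 and 3 and was at 0 in all 3 shNC libraries. These 3 reads all lay in shFTO replicate 3, equal to the upper limit given to a count of 0, so no fold change is given. CHAC1 (chromosome 15, 40952962 to 40956512, plus strand) was at 0 in all 6 libraries, which allows up to 4.81 FPKM in shFTO and 5.06 FPKM in shNC.

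No reads were assigned to listed copies of the members. Of 14 listed pseudogenes named after ATF4, ASNS, PSAT1 or SLC7A5 and 2 antisense genes named after SLC38A2 and SLC7A11, 0 had a read. How the counting treated reads that match both a gene and its copy is not given in the sources used here.

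Summed over the 10 genes, shFTO replicates 1, 2 and 3 had 46.1, 36.1 and 50.3 of 100000 reads, against 23.3, 31.7 and 39.5 in shNC replicates 1, 2 and 3. The groups overlapped, with shFTO replicate 2 below shNC replicate 3. The mean was 44.2 ± 7.26 in shFTO and 31.5 ± 8.1 in shNC (SD, n = 3 each), a difference of 12.7 per 100000 reads. Without SLC38A2 the sums were 9.41, 2.13 and 15.5 per 100000 in shFTO replicates 1, 2 and 3 and 2.12, 6.93 and 4.27 in shNC replicates 1, 2 and 3, so that shFTO replicate 2 was near the bottom and shFTO replicate 3 at the top. In reads, the 9 genes had 10, 2 and 16 in shFTO and 2, 7 and 4 in shNC. Without ATF4 and SLC38A2, the 2 genes that chose the set, the other 8 had 20 reads in shFTO and 12 in shNC, or 6.42 ± 5.27 and 4.11 ± 1.92 per 100000.

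**Figure D3:**
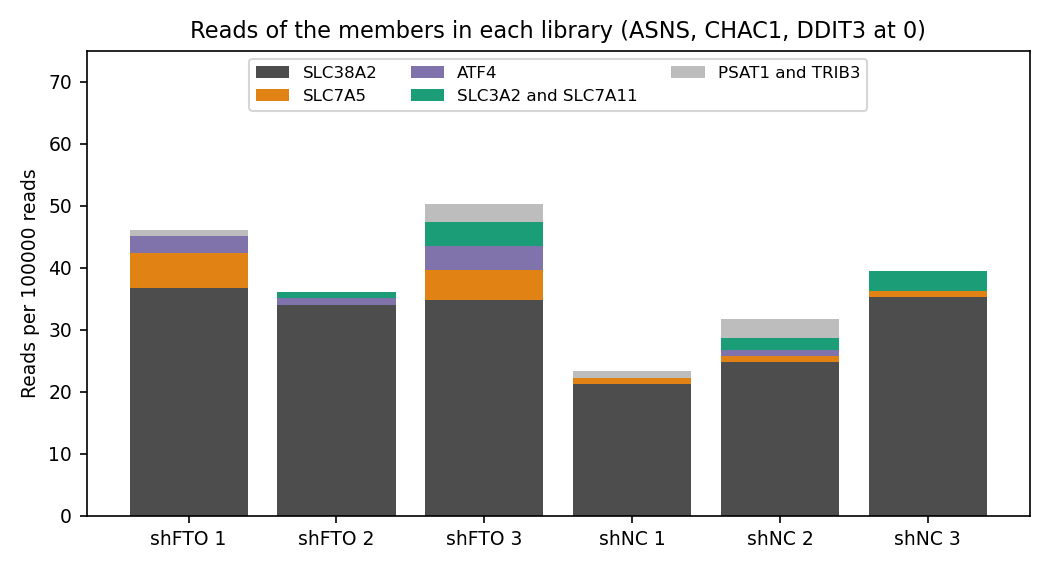
Reads per 100000 reads of each library, stacked by gene, for shFTO replicates 1 to 3 and shNC replicates 1 to 3. The dark SLC38A2 part makes up most of every bar, and the totals run from 36.1 to 50.3 in shFTO and from 23.3 to 39.5 in shNC.

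In the fit over all genes, limma on log2(FPKM + 1) with Benjamini-Hochberg adjustment, 2 of 4932 genes were called at an adjusted p under 0.05 (0.0406%), both lower in shFTO, and 190 had an unadjusted p under 0.05. With any 1 of the 6 libraries left out and the same genes tested, 0 genes were called. With the filter applied again to the libraries left, an alternative chosen after seeing the data, 2 genes were called without shFTO replicate 1, 1 of them higher and 1 lower, and 0 without each of the others. The 7 members with reads passed the filter, which asked that either group average 1 FPKM or more, and 0 of them were called. TRIB3 and SLC3A2 passed through shFTO alone, and SLC7A11 through shNC alone. Since the set was chosen on this contrast, nothing is read from that count. Estimates of all 4932 genes had a median of 0.0040 on the log2 scale, with 50.4% above 0.

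**Figure D4:**
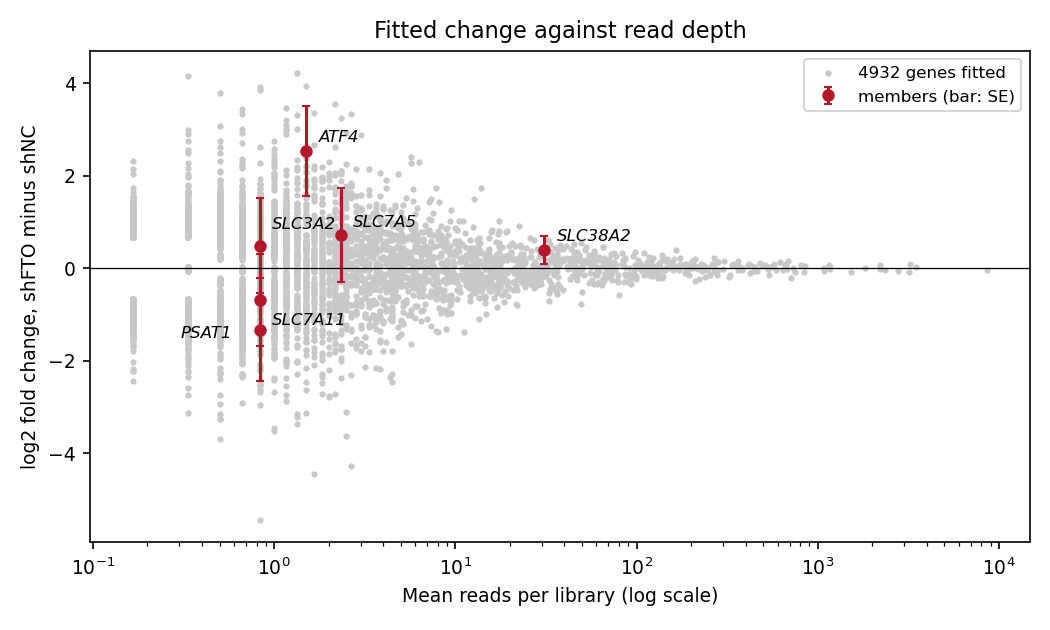
Fitted log2 fold change, shFTO minus shNC, against mean reads per library (log scale) for the 4932 genes tested, in grey, and 6 members, in red with bars of 1 SE. The members other than SLC38A2 lie at the left, where estimates of all genes scatter widely, and SLC38A2 is at 0.40.

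The wider pathway was described by 69 further genes in 7 lists. Of these, 47 had reads and 41 could be tested. In limma 0 rose and 0 fell (smallest adjusted p = 0.772), against 2 called of all 4932 genes tested. At an unadjusted p under 0.05 there were 2 of the 41, against 190 of the 4932. Limma-voom called 0 of the lists' genes. A quasi-Poisson fit also called 0, but it took only genes with 30 or more reads over all libraries. The limma estimates were above 0 for 23 and below 0 for 18, with a median log2 fold change of 0.09. Some of these genes passed the filter through 1 group alone, such as CEBPG through shFTO and SLC1A5 through shNC. The direction of such genes was in part set by the filter, so these counts and the median say little. The lists had 994 reads in shFTO and 953 in shNC, or 327 ± 21.5 and 330 ± 7.86 per 100000 (SD, n = 3 each).

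Upstream of ATF4, EIF2S1, the eIF2 subunit whose phosphorylation starts the response, held 1245 reads, more than the rest of the wider lists together. It had 403 ± 55.6 FPKM in shFTO and 384 ± 41 FPKM in shNC (SD, n = 3 each), a log2 fold change of 0.07 (SE 0.13, limma adjusted p = 0.891). The kinases that phosphorylate it were sparse. EIF2AK4, encoding the amino acid sensor GCN2, had 3 reads in shFTO and 3 in shNC, and EIF2AK3, encoding the ER stress sensor PERK, had 0. PPP1R15B, which recruits the phosphatase that reverses the mark, had 2 reads in shFTO and 5 in shNC.

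Partner and downstream transcription factors of ATF4 had few reads. CEBPB had 6 in shFTO and 6 in shNC, CEBPG had 5 and 0, all 5 in shFTO replicate 1, and NUPR1 had 2 and 0. ATF3, ATF5 and JDP2 were at 0 in all 6 libraries. Among the other amino acid transporters, SLC6A9, a glycine carrier, had 22.1 ± 6.91 FPKM in shFTO and 20.2 ± 9.18 FPKM in shNC (log2 fold change 0.16, SE 0.45, limma adjusted p = 0.929). SLC38A1, the closest relative of SLC38A2 in these lists, had 1.94 ± 0.88 FPKM in shFTO and 1.72 ± 0.579 FPKM in shNC, and SLC38A4 was at 0. SLC7A1, the arginine and lysine carrier, had 2 reads in shFTO and 4 in shNC.

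In the serine, one-carbon, proline and transsulfuration list 7 of 12 genes were at 0. SHMT2, a mitochondrial enzyme of the serine to glycine step, had 5 reads in shFTO, all in replicate 1, and 9 in shNC. PHGDH, which opens serine synthesis, had 9 reads in shFTO, 8 of them in replicate 2, and 1 in shNC. MTHFD2, a mitochondrial folate enzyme, had 5 and 0 reads, and ALDH18A1, which starts proline synthesis, had 1 and 4. The secreted and stress effector list had VLDLR, a lipoprotein receptor, at 5.53 ± 1.59 FPKM in shFTO and 4.56 ± 2.01 FPKM in shNC, STC2 with 4 and 5 reads and TNFRSF10B, a death receptor gene, with 5 and 4. DDIT4, SESN2, GDF15 and FGF21 were at 0 throughout.

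The synthetase and tRNA export list was the one of the 7 whose sums did not overlap between groups. Its 13 genes all had reads, and they summed to 23.5, 24.4 and 22.2 per 100000 reads in shFTO replicates 1, 2 and 3, against 28.6, 28.7 and 32 in shNC replicates 1, 2 and 3. No member was called. TARS1, the threonine enzyme, had 2.21, 2.5 and 4.54 FPKM in shFTO replicates 1, 2 and 3, against 17.43, 9.3 and 10.04 FPKM in shNC replicates 1, 2 and 3 (log2 fold change -1.69, SE 0.71, limma adjusted p = 0.772). TARS1 supplied 4 reads in shFTO and 15 in shNC. XPOT, which exports tRNA from the nucleus, had 15 and 14 reads, and LARS1, the leucine enzyme, had 11 and 9. Without TARS1, left out after its values were seen, the list summed to 22.6, 23.4 and 20.3 per 100000 reads in shFTO replicates 1, 2 and 3, against 21.2, 24.8 and 27.8 in shNC replicates 1, 2 and 3. The groups then overlapped, and the difference in means was -2.48 per 100000, against -6.39 with TARS1. With 3 libraries in each group the sums of a list can also separate by chance, and how often was not tested.

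The ER chaperones of the ATF6 and XBP1 arms report on unfolded protein rather than on amino acids. HSPA5, the master chaperone BiP, had 14.41, 11.39 and 13.32 FPKM in shFTO replicates 1, 2 and 3, against 29.22, 33.36 and 24.53 FPKM in shNC replicates 1, 2 and 3 (log2 fold change -1.09, SE 0.43, limma adjusted p = 0.772). HSP90B1 had 14.3 ± 5.84 FPKM in shFTO and 16 ± 8.67 FPKM in shNC, and CALR had 34.5 ± 13 and 23.9 ± 14.7 FPKM (SD, n = 3 each), both within the spread between libraries. Of the 41 wider genes tested, 5 had FPKM that did not overlap between groups and lay lower in shFTO (12.2%), against 3.69% of all genes tested. They were HSPA5, TARS1, ALDH18A1, IARS1, the isoleucine enzyme with 3 reads in shFTO and 10 in shNC, and XBP1, a transcription factor of the unfolded protein response with 4 and 9 reads. In XBP1 the nearest libraries of the groups had 2 reads each, and in ALDH18A1 1 read each, so these 2 genes were separated by library size alone. ALDH18A1 averaged 0.857 FPKM in shFTO and 3.71 FPKM in shNC, and IARS1 averaged 0.457 and 1.55 FPKM. Both passed the filter of 1 FPKM through shNC alone, so their direction was in part set by that filter. IARS1 and XBP1 are named after their values were seen. None of the 41 lay higher in shFTO without overlap, against 2.9% of all genes tested, and whether these shares differ from those of all genes was not tested.

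**Figure D5:**
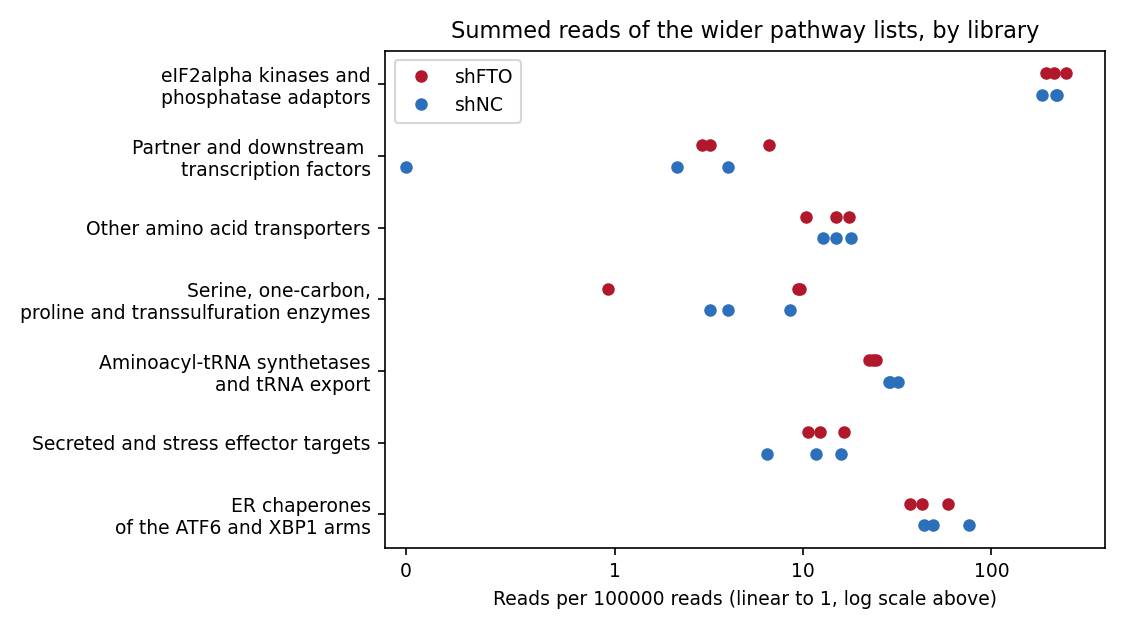
Summed reads per 100000 reads (linear up to 1 and on a log scale above) of the 7 wider lists, with the 3 shFTO libraries above the 3 shNC libraries in each. The eIF2alpha list is highest because of EIF2S1, and the synthetase list, TARS1 included, is the one in which the libraries of the 2 groups do not overlap.

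Among 704 other genes that averaged 10 reads or more per library, the 3 whose pattern over the 6 libraries was nearest to that of SLC38A2 were EIF4EP2, PURB and WASL. EIF4EP2 is a pseudogene of the cap-binding factor gene EIF4E that may share reads with it, so its values are uncertain, PURB encodes a nucleic acid binding protein and WASL an actin regulator. The root mean square difference of their centred log2(FPKM + 1) from that of SLC38A2 was 0.104, 0.109 and 0.119, against a median of 0.394 over the 704 genes and a size of the SLC38A2 pattern itself of 0.294. EIF4EP2 had 964, 894 and 1005 FPKM in shFTO replicates 1, 2 and 3, against 697, 712 and 1029 FPKM in shNC replicates 1, 2 and 3. As in SLC38A2, shNC replicate 3 was as high as shFTO, and shNC replicate 1 was the lowest in all 3 genes. The 3 genes were picked for likeness over these same libraries, so the shared pattern follows from the choice and supports nothing.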

How the data were processed

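Poly(A) RNA was sequenced in 3 shFTO and 3 shNC libraries of MG63 cells, per the labels' protocols. The submitters' processing notes name the aligner HISAT2 2.2.1, the counter HTSeq 0.6.1, DESeq2 1.50.2, StringTie 1.3.3b, FastQC 0.10.1 and build GRCh38, without their order or roles. Each gene has a deposited FPKM value with 2 decimals, beside its position and exonic length, per the file headers. FPKM divides by the library total, so abundant genes lower the rest.

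Columns were matched to samples by group and replicate number in their names. Library totals from 20000 to 200000 reads were tried, and the one that best turned FPKM into whole reads was kept. In every library 100% of values above 0 came out whole within 0.05 read. The count test called 0 or 5 genes on these reads (quasi-Poisson and limma-voom).

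The main test used R 4.3.3 and limma 3.58.1 (robust, with a trend) with log2(FPKM + 1) as the response and the group as the single term. It took genes for which either group averaged 1 FPKM or more. Adding 1 understates changes of low genes. P-values were Benjamini-Hochberg adjusted and called under 0.05. Read ratios had exact conditional intervals and counts exact Poisson intervals (SciPy 1.17.1, Python 3.11.15). A count of 0 was given a limit of 3 reads. The tests were tested on simulated data, where a larger share of limma's calls was false than the threshold of 0.05 allows. The simulated libraries varied less within a group than the real ones did, so that share need not hold here. Library pairs within a group differed by more than sampling noise (chi-square per degree of freedom from 1.78 to 2.08 over 705 genes). No pair therefore looked like simple random draws of reads from 1 library, and repeats that differ by more would not be seen. The labels call the replicates biological.

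The members and the 7 wider lists were chosen with earlier results of these data known. Named were the 10 members, up to 3 genes with the most reads in each wider list (4 where tied), any called gene of those lists, and the 3 genes nearest to SLC38A2. Further genes at 0, overlapping genes, and the lists' genes whose groups did not overlap were named after their values were seen. Alternatives were another pseudocount, filter, scaling, test or replicate block, and leaving out each library. Added after seeing the data were leaving out each library with the filter applied again or with moderation that was not robust, and leaving TARS1 out of its list.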

Additional observations from a re-analysis of the deposited data

How the results depend on the processing

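The count of called genes, 2 as reported, was 7 with a pseudocount of 0.1, 9 without a filter, 0 among genes averaging 10 reads or more per library, 5 in limma-voom on recovered reads, 0 in the quasi-Poisson fit and 17 with the replicate block. It was 0 without each library in turn (range 0 to 0) and 2 with median-of-ratios scaling. In 2 alternatives added after seeing the data, it was 0 to 2 without each library in turn and the filter applied again, and 0 to 0 with moderation that was not robust. The count of called wider pathway genes was 0 under these 13 alternatives and the 2 added ones. The filter of 10 reads per library and the quasi-Poisson fit tested 705 and 1021 genes in all. Few wider pathway genes were among those, so a count of 0 there says little. Same-numbered libraries did not deviate together (correlations of -0.003, 0.039 and -0.012), which gave no sign that the replicate numbers pair the samples. Counting noise at this depth could hide a weak pairing, so the check cannot decide it. In the replicate block the difference in summed reads of the 10 members stayed at 12.7 per 100000. It was 4.56 without SLC38A2 and 2.31 without ATF4 and SLC38A2, as those settings remove their reads, 12.2 with median-of-ratios scaling, and 8.57 to 16.7 without each library in turn. The log2 fold change of SLC38A2 lay between 0.25 and 0.60, which is no sign of stability since the set was chosen on this direction. ATF4 had values from 2.00 in limma-voom to 4.70 with a pseudocount of 0.1 and could not be fitted in the 2 settings that ask for more reads. SLC3A2 turned to -0.45 without shFTO replicate 3. Depth limits all members, SLC38A2 included, and 1 read is worth 3.60 to 4.09 FPKM for ATF4. Where causes are not given above, the cause was not tested.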
